A study of Mus musculus with 10 samples.

Results

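Normal mouse cortex at embryonic day 12 was described from 5 RNA sequencing libraries, out of 10 in the series. The members were chosen by their label: each library came from 1 animal that carried the Emx1-Cre driver and intact Zbtb7a alleles (Emx1 Cre/+; Zbtb7a +/+, called WT), so every animal described here also carried Cre. Emx1-Cre acts in progenitors of the dorsal telencephalon. The remaining 5 libraries, from conditional knockouts, were not used. WT 1 and WT 2 came from litter 1, WT 3 and WT 4 from litter 3, and WT 5 from litter 5. The text of the series speaks instead of 3 cortices in a condition, taken from 2 litters, and the labels were followed. RNA was extracted with a column kit and enriched for polyadenylated transcripts. The sources do not say how the tissue was cut out of the head.

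At this stage the cortical wall is a thin epithelium of dividing apical progenitors, the radial glia, whose nuclei move between the ventricle and the outer part of the wall as they pass through the cell cycle. Notch signalling keeps neighbouring cells as progenitors, while proneural factors such as Neurog2 push daughters towards intermediate progenitors and the first neurons. Those neurons settle in a preplate beneath the meninges, together with Cajal-Retzius cells that secrete Reelin. Blood vessels, their pericytes and immature microglia enter from the pia, and primitive red cells made in the yolk sac fill the vessels.

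The 5 markers of early cortex were present in every library. Tubb3, the tubulin of postmitotic neurons, stood at 722.8, 669.8, 491.1, 525.4 and 918.4 TPM (a length-corrected share of the library, scaled to a fixed total) in WT 1 to WT 5, respectively. Fabp7, a fatty acid binding protein of radial glia, stood at 433.5, 422.4, 584.6, 515.6 and 542.3 TPM. These were the most abundant of the 5 markers, with Tubb3 lowest in WT 3 and Fabp7 lowest in WT 2. Sox2, a factor that maintains neural progenitors, stood at 260.2, 249.2, 134.3, 155.7 and 220.6 TPM. Hes5, a Notch target, stood at 173.1, 163.1, 124.2, 151.5 and 165.9 TPM, and Pax6, a homeobox factor of dorsal progenitors, at 119.2, 102.4, 67.8, 91.5 and 106.3 TPM. All 3 were lowest in WT 3. The markers of a radial glial and neuronal tissue were thus present, and the label of cortex was kept.

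Between 19056 and 19550 of the 24814 listed genes were above 0 TPM in a library, and 13719 to 14034 reached 1 TPM. In all 5 libraries together, 12734 genes reached 1 TPM and 1853 genes were listed at 0. TPM keeps no record of how many reads were sequenced, so sequencing depth is unknown here and counting error cannot be given. In bulk tissue, fewer cells of a type and less RNA per cell cannot be told apart. Pearson correlations of log2(TPM + 1) were 0.968 and 0.979 within the 2 litters that had a pair of libraries, and 0.931 to 0.969 between litters, across the 8924 genes with a mean of at least 10 TPM. Genes are not independent replicates, so these values describe the libraries only. WT 3 was the library with Xist at 20.4 TPM, against at most 0.01 in the others, and with Ddx3y, Kdm5d, Eif2s3y and Uty listed at 0. The other 4 libraries held these Y-linked genes at 9.64 TPM or more. WT 3 is therefore the only library with this pattern, and sex cannot be told apart from any other property of it.

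Protein-coding genes of ribosomal proteins made up most of the 100 most abundant genes. The 100 most abundant genes held 30.6% ± 3.28 (SD, n = 5) of TPM, and 371 genes held 50% of the mean. Among those 100 genes, 62 encode cytosolic ribosomal proteins, 4 globins and 3 proteins of the mitochondrial genome. The embryonic beta-like globin Hbb-y led with 7569, 7902, 21218, 22492 and 9781 TPM in WT 1 to WT 5. The translation elongation factor Eef1a1 came next with 12650, 13407.5, 15016, 14664 and 12959 TPM. The order of these leading genes was not the same in all libraries: Hbb-y exceeded Eef1a1 in WT 3 and WT 4 and lay below it in WT 1, WT 2 and WT 5. The ribosomal protein gene Rps27 followed at 8262 ± 1312 TPM (mean ± SD, n = 5), then the alpha globins Hba-a2 at 7627 ± 4247 and Hba-a1 at 6023 ± 3335.

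**Figure D1:**
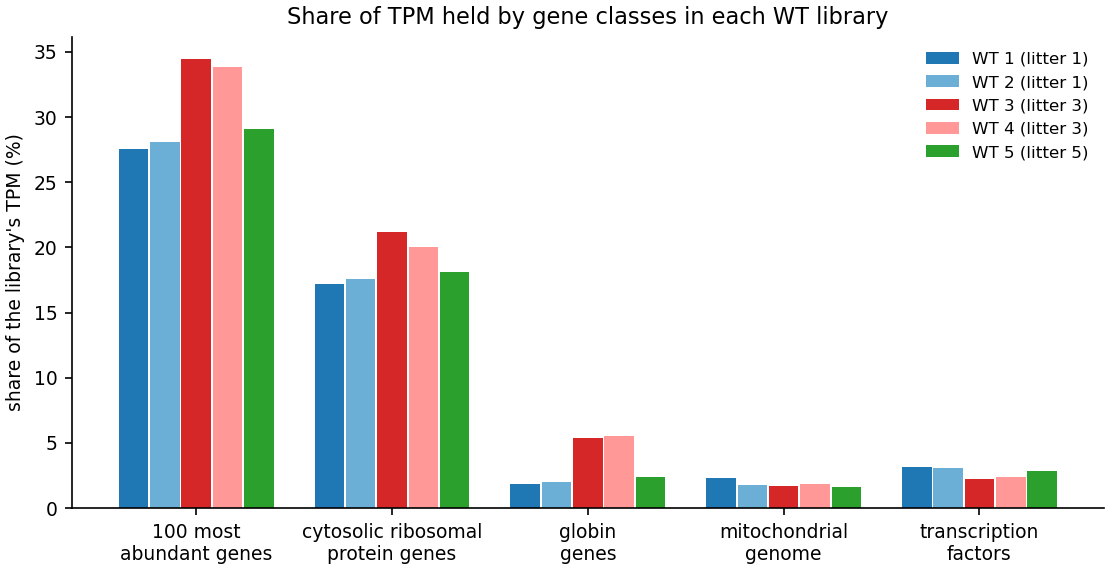
Share of each library's TPM, in percent, held by the 100 most abundant genes, 84 cytosolic ribosomal protein genes, 8 globin genes, 15 genes of the mitochondrial genome and 1080 transcription factors, with 1 bar per WT library and no error bars. The WT 3 and WT 4 bars are highest for the globins (5.42% and 5.57%) and lowest for the transcription factors (2.21% and 2.38%).

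Below the leading genes the list held coding genes of several other kinds. Ptma, which encodes the histone-binding prothymosin alpha, stood at 4663, 4867, 4247, 4456 and 4777 TPM, lowest in WT 3 and highest in WT 2. Tpt1, a growth-associated protein bound to the translation machinery, stood at 4412 ± 418. Tuba1a, the main alpha tubulin of young neurons, stood at 3692, 3829, 4144, 3591 and 4856 TPM in WT 1 to WT 5, highest in WT 5. Its transcript matches that of Tuba1b at 98.3% identity over 1357 bases, so the separate levels of both are uncertain. The glycolytic enzyme Gapdh stood at 3540 ± 368 TPM. The actin-binding Tmsb4x was at 3111 ± 268 and Tmsb10 at 2474 ± 354, the tubulins Tuba1b at 2850.2 ± 162 and Tubb5 at 2501 ± 370.4, and the microtubule-destabilising Stmn1 at 2495 ± 214 TPM. Also among the 100 were Hmgb1, a chromatin-bending protein, at 2816 ± 94.2, the RNA-binding Ybx1 at 2721 ± 172, the kinase of the G1 phase Cdk4 at 1788 ± 95.4, and the imprinted gene Nnat at 1745 ± 181 TPM. The values for this last group moved little: the coefficient of variation (CV, the SD as a percentage of the mean) ran from 3.35% for Hmgb1 to 10.4% for Nnat. The ribosomal protein genes Rplp1, Rpl41, Rpl13a, Rplp0, Rps18, Rps2, Rpl32, Rpl23a, Rps15 and Rps14 also stood near the top, at means from 5409 TPM for Rplp1 down to 3425 for Rps14.

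The mitochondrial genome held 1.62% to 2.30% of TPM, led by mt-Nd3 at 5896 ± 1164 TPM, mt-Atp8 at 3780 ± 610 and mt-Co1 at 2077 ± 695. The ranking within this genome depends on how reads were shared with nuclear copies. mt-Co2, a cytochrome oxidase subunit, was listed at 95.0, 0, 61.9, 0 and 54.8 TPM, while the nuclear pseudogene Gm28661, identical to it over 681 of its 684 bases, was listed at 3863, 2981, 2153, 2319 and 1736 TPM. The sum of both was 2653 ± 845 TPM. Gm28437, a nuclear pseudogene identical to mt-Co3 over 783 bases, stood at 2300 ± 289 TPM. Neither pseudogene is counted in the share of the mitochondrial genome, which may therefore be too low. WT 1 was highest in 14 of the 15 mitochondrial genes measured. Among all genes with a mean of at least 10 TPM, it was highest in 32.1%.

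Protein-coding genes held 93.4% to 94.2% of TPM, pseudogenes 4.00% to 4.56%, and long intergenic noncoding RNAs 0.851% to 1.13%. The most abundant intergenic RNA by annotation, Gm10076 at 5710 ± 1486 TPM, matched the ribosomal protein gene Rpl41 at 99.5% identity over 383 of its 384 bases. The sum of both was 11079 ± 2449 TPM, and their separate levels are uncertain. The ribosomal RNA gene CT010467.1 stood at 3050 ± 664 TPM. AY036118, at 913 ± 291 TPM, matched CT010467.1 at 100% identity over all 923 of its bases and overlaps it on the same strand, so the separate levels of this pair are uncertain too. Among genes annotated as intergenic RNAs or processed transcripts, the next by level were Cct6a, a chaperonin gene with a noncoding biotype in this annotation, at 377 ± 13.96, Gas5, a host of small nucleolar RNAs, at 248.7 ± 35.7, the imprinted H19 at 245 ± 103, and Pantr1, which is transcribed beside the neural factor gene Pou3f3, at 237 ± 17.7 TPM. Pantr1 was among the steady genes, and H19 was highest in WT 3 at 418.9 TPM against 172.3 to 256.4 in the others.

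Apical progenitor genes formed the strongest cell class of the cortex proper. All 24 listed members reached 1 TPM in every library, with a median of their means of 104 TPM. The intermediate filament Vim led at 1760, 1734, 1254, 1260.3 and 1534 TPM in WT 1 to WT 5. The LIM homeobox factor Lhx2, which specifies cortical identity, stood at 799.6, 832.7, 458.2, 583.5 and 698.0 TPM, and the replication clamp Pcna at 609 ± 51.0. Both libraries of litter 3 were below the other 3 for Vim and Lhx2, and for Pcna. Id4, which restrains differentiation factors, stood at 293 ± 66.7, the filament Nes at 183 ± 48.4, the chromatin factor Hmga2 at 175 ± 25.03, the Notch target Hes1 at 95.0 ± 14.5, and the receptor Notch1 at 58.4 ± 23.7 TPM. Of the 24 members, 22 were lowest in WT 3, as were 47.1% of all genes with a mean of at least 10 TPM.

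Cell cycle genes were uniformly present. All 28 replication genes and all 25 mitosis genes reached 1 TPM in every library, with medians of their means of 104 and 101 TPM. The replicative helicase subunits Mcm7 and Mcm3 stood at 296 ± 60.2 and 204 ± 53.5 TPM, and the ribonucleotide reductase Rrm2 at 290 ± 70.2. Among mitosis genes, Ube2c, of the anaphase-promoting complex, stood at 531 ± 50.7, the kinase Cdk1 at 368 ± 26.2, the topoisomerase Top2a at 257 ± 76.5 and the cyclin Ccna2 at 227 ± 30.9 TPM. Top2a was the more variable of these, at 336.4, 322.2, 170.0, 185.7 and 270.9 TPM, lowest in WT 3 and WT 4, whereas Birc5 and Tyms had CVs of 2.85% and 4.30%.

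Intermediate progenitor genes were next, with 16 of 18 at 1 TPM or more in every library and a median of 49.6 TPM. Neurog2, the main cortical proneural factor, stood at 290.3, 275.4, 133.1, 197.4 and 227.0 TPM, and Hes6, which opposes Notch effectors, at 164 ± 18.0. Eomes, the T-box factor that marks intermediate progenitors, stood at 126.1, 105.2, 43.7, 64.0 and 97.9 TPM. Neurog2 and Eomes were lowest in WT 3, next lowest in WT 4 and highest in WT 1. Gadd45g, a growth arrest gene, stood at 97.4 ± 20.2. The lowest members were Neurod4 at 2.79 ± 1.26 and Penk at 1.57 ± 0.882 TPM.

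Early neuronal genes spanned a wider range. All 32 reached 1 TPM in every library, and the median of their means was 30.8 TPM. Behind Tubb3 came Map2, a dendritic microtubule protein, at 226 ± 51.7 TPM, then the upper-layer and progenitor factors Pou3f3 at 96.1 ± 35.9 and Cux1 at 96.0 ± 21.7. Tbr1, the T-box factor of preplate neurons, stood at 121.9, 107.8, 44.7, 58.4 and 125.3 TPM. The microtubule proteins Dcx and Mapt stood at 60.5, 54.3, 25.5, 24.8 and 85.05 TPM and at 10.5, 12.7, 8.01, 5.11 and 26.3 TPM. WT 5 had the highest value of Tbr1, Dcx and Mapt, and WT 3 and WT 4 the lowest of all 3. Myt1l, a neuronal zinc finger factor, ran the same way at 7.75, 4.44, 2.71, 2.42 and 9.70 TPM. The factor Foxp2 was low, at 7.11 ± 3.47 TPM.

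Cajal-Retzius genes were measured at low to moderate levels, with 12 of 14 at 1 TPM or more in every library and a median of 9.50 TPM. Apart from Tbr1, the leading members were Trp53i11 at 90.1 ± 19.8 and the helix-loop-helix factor Nhlh2 at 25.3 ± 4.22 TPM. Reln, which encodes Reelin, stood at 11.1, 15.8, 7.38, 8.63 and 15.2 TPM, and Trp73, a p53 relative of these cells, at 11.5, 14.7, 11.9, 6.44 and 11.7 TPM. Reln was lowest in WT 3 and Trp73 in WT 4. Ndnf had the lowest mean of the members named here, 1.81 ± 1.47 TPM, with its highest value in WT 3.

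Genes of mature neurons and of glia were present in part. Of the synaptic list, 9 of 18 reached 1 TPM in every library, led by the postsynaptic scaffold Dlg4 at 40.9 ± 6.64 TPM, with the kinase Camk2a at 9.19 ± 2.00. Of the astrocyte and oligodendrocyte list, 6 of 17 did, and its leading members Gja1, a gap junction protein, at 120 ± 18.98, Glul, glutamine synthetase, at 90.8 ± 11.3 and Aldoc at 69.7 ± 30.7 TPM are also used by radial glia. Defining genes of mature glia stayed near 0, with Gfap at most 0.24, Aqp4 at most 1.16 and Sox10 at most 0.24 TPM.

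**Figure D2:**
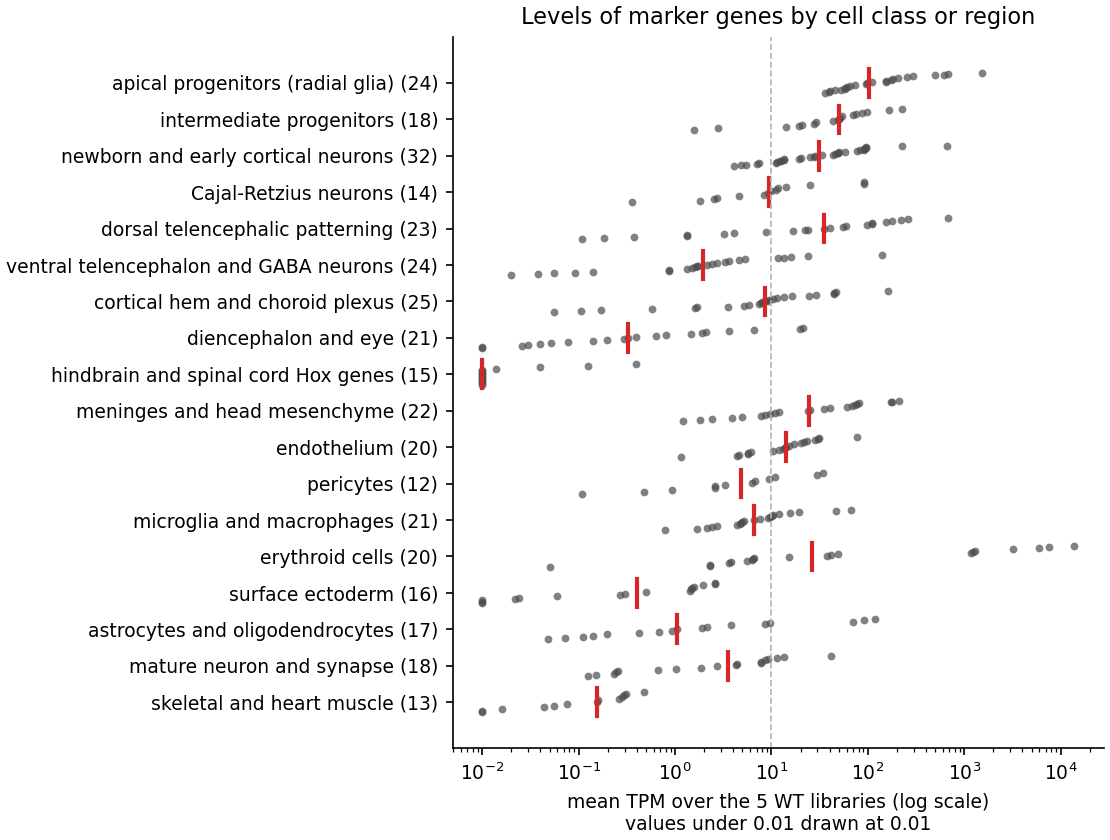
Mean TPM over the 5 WT libraries on a log axis for every listed gene of 18 cell classes or regions, with 1 grey point per gene, the number of genes in brackets, a red bar at the median and a dashed line at 10 TPM. Apical progenitor genes have the highest median (104 TPM), and the Hox and muscle lists lie below 1 TPM.

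Factors that pattern the telencephalon were measured as bulk levels, which give no position within it. Lhx2 led the dorsal list. Nr2f1, a nuclear receptor graded towards the caudal cortex, stood at 283.1, 242.2, 135.0, 154.5 and 285.7 TPM. The paralogs Emx1 and Emx2 stood at 176 ± 35.6 and 110 ± 35.01, and Dmrta2 at 110 ± 27.3 TPM. All of these were lowest in WT 3 and next lowest in WT 4. Of the 20 dorsal genes with a mean of at least 1 TPM, 15 were lowest in WT 3. Among genes with a mean of at least 10 TPM, WT 3 was lowest for 47.1% of all and 64.4% of transcription factors. The rostral signals Fgf8 and Fgf17 reached at most 0.61 and 0.35 TPM, and Fgf15 averaged 4.04 ± 2.52.

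Ventral telencephalic genes separated the libraries. Dlx1, a homeobox factor of the ganglionic eminences, stood at 0.79, 0.36, 13.6, 0.37 and 65.3 TPM, and its neighbour Dlx2 at 0.62, 0.40, 9.15, 0.42 and 48.3 TPM. Dlx5 stood at 0.06, 0.21, 8.03, 0 and 18.4, Gsx2 at 0.08, 0, 4.98, 0 and 11.4, and Gad2, which makes GABA, at 0.03, 0.16, 3.00, 0.02 and 10.4 TPM. WT 5 was highest for all 5 genes, WT 3 was intermediate, and WT 1, WT 2 and WT 4 stayed under 1 TPM for each. Of the 17 ventral genes with a mean of at least 1 TPM, 14 were highest in WT 5. Among all genes with a mean of at least 10 TPM, 18.7% were highest there. Nkx2-1, which marks the medial eminence, reached at most 0.06 TPM, while Meis2, which dorsal cells also use, stood at 139 ± 50.4. The part that ventral tissue in the dissection played was not tested.

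Hem and choroid plexus genes followed another order. Ttr, the transthyretin of choroid plexus, stood at 111.9, 168.4, 267.4, 11.3 and 250.8 TPM. Clic6 stood at 9.42, 11.9, 20.6, 1.98 and 13.3, Folr1 at 4.24, 7.16, 14.8, 3.11 and 7.46, and Kcne2 at 3.76, 4.82, 9.47, 0.43 and 7.29 TPM. These 4 choroid plexus genes were lowest in WT 4 and, for each, highest in WT 3. Hem signals were closer together, with Wnt8b at 44.7 ± 12.9, Rspo1 at 44.6 ± 9.56 and Rspo3 at 29.0 ± 5.04 TPM. The midline factors Msx1 and Msx2 stood at 24.3, 26.4, 114.0, 45.4 and 23.2 TPM and at 3.18, 3.30, 26.0, 4.95 and 2.72 TPM, and the water channel Aqp1 at 2.55, 3.62, 17.4, 3.15 and 2.66 TPM, all highest in WT 3. For Msx1 and Msx2 WT 4 was next highest, as for the collagen genes below and unlike the 4 choroid plexus genes. Which tissue these values came from was not tested. The ligand Bmp4 differed from Msx1, Msx2 and Aqp1, at 2.65, 4.07, 15, 27.7 and 2.88 TPM, and was highest in WT 4.

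Other regions and tissues were at low levels or absent. Of 21 diencephalic and eye genes, 5 reached 1 TPM in every library, led by Dct at 21.2 ± 6.22 and Lhx9 at 19.7 ± 3.96 TPM. No gene of the Hox list did so, 11 of its 15 listed members were at 0 in all 5 libraries, and the midbrain and hindbrain factor En1 was above 0 in WT 3 alone, at 1.97 TPM. No skeletal or heart muscle gene of 13 and no germ cell gene of 8 reached 1 TPM in every library, and 5 of 16 surface ectoderm genes did, all with means under 3 TPM.

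Genes of vessels were measured in every library. The endothelial list had 19 of 20 genes at 1 TPM or more in every library, led by the glucose transporter Slc2a1 at 76.97 ± 4.58, Ramp2 at 31.3 ± 6.63, Egfl7 at 30.6 ± 6.65 and the tight junction protein Cldn5 at 27.96 ± 4.84 TPM. Its only member with a mean of at least 5 TPM and a CV of 50% or more was the factor Erg, at 11.7 TPM in WT 3 against 2.96 to 5.80 in the others. The endothelial list ran otherwise: 13 of its 20 genes were highest in WT 5 and 4 in WT 3. Among all genes with a mean of at least 10 TPM, 18.7% were highest in WT 5. The summed level of the list was 317, 319, 377, 345 and 420 TPM in WT 1 to WT 5. Pericyte genes included Notch3 at 34.5 ± 10.2, Vtn at 29.4 ± 7.32 and Rgs5 at 10.8 ± 2.57 TPM, with 9 of 12 at 1 TPM or more in every library.

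Mesenchymal and macrophage genes were highest in WT 3 nearly throughout. The collagen genes Col3a1, Col1a2 and Col1a1 stood at 133.6, 154.9, 397.6, 232.0 and 142.5 TPM, at 44.2, 51.2, 205.3, 70.0 and 38.1 TPM, and at 42.6, 41.6, 198.6, 55.7 and 30.9 TPM. WT 3 was highest for each collagen and WT 4 next highest. The small proteoglycan Lum stood at 32.9, 39.0, 121.3, 71.3 and 36.9 TPM, the factors Prrx2 and Twist1 reached 25.8 and 32.8 TPM in WT 3, and the receptor Pdgfra 16.2. Of the 22 members of the meninges and head mesenchyme list, 21 were highest in WT 3. Among all genes with a mean of at least 10 TPM, 15.3% were highest there. The summed level of the list was 821, 878, 1935, 1122 and 795 TPM. Crabp2, at 179 ± 32.6 TPM, and Igf2, at 172 ± 77.01, were the other leading members.

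Among macrophage genes, Pf4 stood at 19.7, 39.1, 103.6, 45.0 and 23.7 TPM, and the endocytic adaptor Dab2 at 12.2, 16.1, 38.6, 19.03 and 11.03. The complement genes C1qb, C1qc and C1qa reached 30.7, 19.4 and 18.1 TPM in WT 3, and the receptor Csf1r 17.5. Of 20 macrophage genes with a mean of at least 1 TPM, 18 were highest in WT 3, including each of those just named. The share among all genes with a mean of at least 10 TPM was 15.3%. Sall1, the highest member at 66.1 ± 27.5 TPM, was lowest in WT 3, and neural progenitors also use it.

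Red cell genes had the highest summed level among the lists of non-neural cells. The 20 listed erythroid genes summed to 18402, 19799, 54465, 55947 and 24028 TPM, with both libraries of litter 3 above the other 3. The promoters of Hbb-y, Hba-x, Hba-a1 and Hba-a2 are shown because these genes moved together over a wide range. Hbb-bh1, Hbb-bs and Hbb-bt moved in the same way, and their promoters are not shown. Each run is the 250 bases before the RefSeq start on GRCm38.p6, read 5′ to 3′ on the gene's strand, and capitals mark CCAAT (a box bound by nuclear factor Y) and CACCC (a box bound by Klf1 in red cells), both searched on either strand. Of all 27025 promoters in the RefSeq table, 34.5% hold CCAAT and 51.3% hold CACCC, so a match is a description only.
Hbb-y (chr7:103853208-103853457, minus strand): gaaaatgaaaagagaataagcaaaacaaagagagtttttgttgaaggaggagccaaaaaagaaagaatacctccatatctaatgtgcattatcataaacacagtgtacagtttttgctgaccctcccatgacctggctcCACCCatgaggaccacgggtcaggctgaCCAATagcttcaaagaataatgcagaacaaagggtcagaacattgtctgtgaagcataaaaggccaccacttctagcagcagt
Hba-x (chr11:32276350-32276599, plus strand): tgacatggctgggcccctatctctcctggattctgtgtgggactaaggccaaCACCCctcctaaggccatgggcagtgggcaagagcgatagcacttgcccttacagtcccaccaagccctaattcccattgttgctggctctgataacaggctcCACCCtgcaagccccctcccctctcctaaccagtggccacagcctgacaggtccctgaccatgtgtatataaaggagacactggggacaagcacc
Hba-a1 (chr11:32283422-32283671, plus strand): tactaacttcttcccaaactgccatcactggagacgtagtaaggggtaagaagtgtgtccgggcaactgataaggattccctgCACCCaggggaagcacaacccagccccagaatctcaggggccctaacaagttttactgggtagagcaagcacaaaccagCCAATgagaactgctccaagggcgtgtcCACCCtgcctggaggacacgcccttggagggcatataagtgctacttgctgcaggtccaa
Hba-a2 (chr11:32296242-32296491, plus strand): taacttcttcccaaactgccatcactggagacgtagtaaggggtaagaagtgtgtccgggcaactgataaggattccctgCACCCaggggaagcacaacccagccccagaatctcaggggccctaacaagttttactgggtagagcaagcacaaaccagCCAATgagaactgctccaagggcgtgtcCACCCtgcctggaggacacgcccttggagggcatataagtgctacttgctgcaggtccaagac

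Of these, Hbb-y, Hba-a1 and Hba-a2 hold CCAAT at 83, 88 and 91 bases before the start, and all 4 hold CACCC. Hba-x, the embryonic alpha-like globin, stood at 1701, 1636, 5033, 5166 and 2434 TPM, and Hbb-bh1, a second embryonic beta-like gene, at 601.4, 596.1, 2155, 1938 and 921.7 TPM. The adult-type genes Hba-a2, Hba-a1, Hbb-bs and Hbb-bt stood at 12590, 9983, 1730.5 and 1785 TPM in WT 4, and at 3965, 3224, 607.6 and 619.0 in WT 1. Alas2, which starts haem synthesis, stood at 25.3, 26.1, 70.1, 74.8 and 47.5 TPM and the membrane transporter Slc4a1 at 23.6, 22.6, 62.6, 65.7 and 34.4 TPM. For each of these genes WT 3 and WT 4 lay above the other libraries and WT 5 above WT 1. The factor Nfe2 was lower, at 6.43 ± 3.25 TPM. Hba-a1 and Hba-a2 transcripts are 99.8% identical over 538 bases, so the split between them is uncertain.

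Transcription factors held 2.21% to 3.12% of TPM. By symbol, 1080 factors of 41 families were listed, of which 826 had a mean of at least 1 TPM, 452 of at least 10 and 48 of at least 100, and 35 were listed at 0 in all libraries. The chromatin-bending Hmgb1 led, followed by its relatives Hmgb2 at 844 ± 17.4 and Hmgb3 at 668.0 ± 45.6 TPM, which are DNA-binding proteins without much sequence preference. Among sequence-specific factors Lhx2 led at 674 ± 155 TPM, a range that encloses all values of Hmgb3. Tead2, the partner of the Hippo coactivator Yap in embryonic neural tissue, stood at 436 ± 73.1, the zinc finger factor Maz at 404 ± 84.7 and Hmga1 at 341 ± 110.1 TPM.

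Below these, the range of each factor over the 5 libraries overlapped that of its neighbour in the order. This held for Tcf3, the dimer partner of proneural factors, at 259 ± 51.6, Sox3 at 252 ± 77.05, Jund at 242 ± 44.8, Zfp207 at 228 ± 13.0, Neurog2 at 225 ± 63.3 and Nr2f1 at 220.1 ± 71.3 TPM. It also held for Zfp706 at 218 ± 15.4, Sox4 at 207 ± 65.4, Tcf4 at 207 ± 70.5, Sox2 at 204 ± 56.3, Usf1 at 184 ± 16.5, Zfp422 at 177 ± 27.0, Atf4 at 176 ± 10.8, Emx1, Hmga2 and Plagl1 at 173 ± 68.7 TPM. Hes6 at 164 ± 18.0 TPM closed the 25 highest. Factors further apart in the order did not always overlap: Zfp706 lay at 199.6 to 237.3 TPM and Atf4 at 163.5 to 188.6. The order is that of means over 5 libraries and does not hold in each library.

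**Figure D3:**
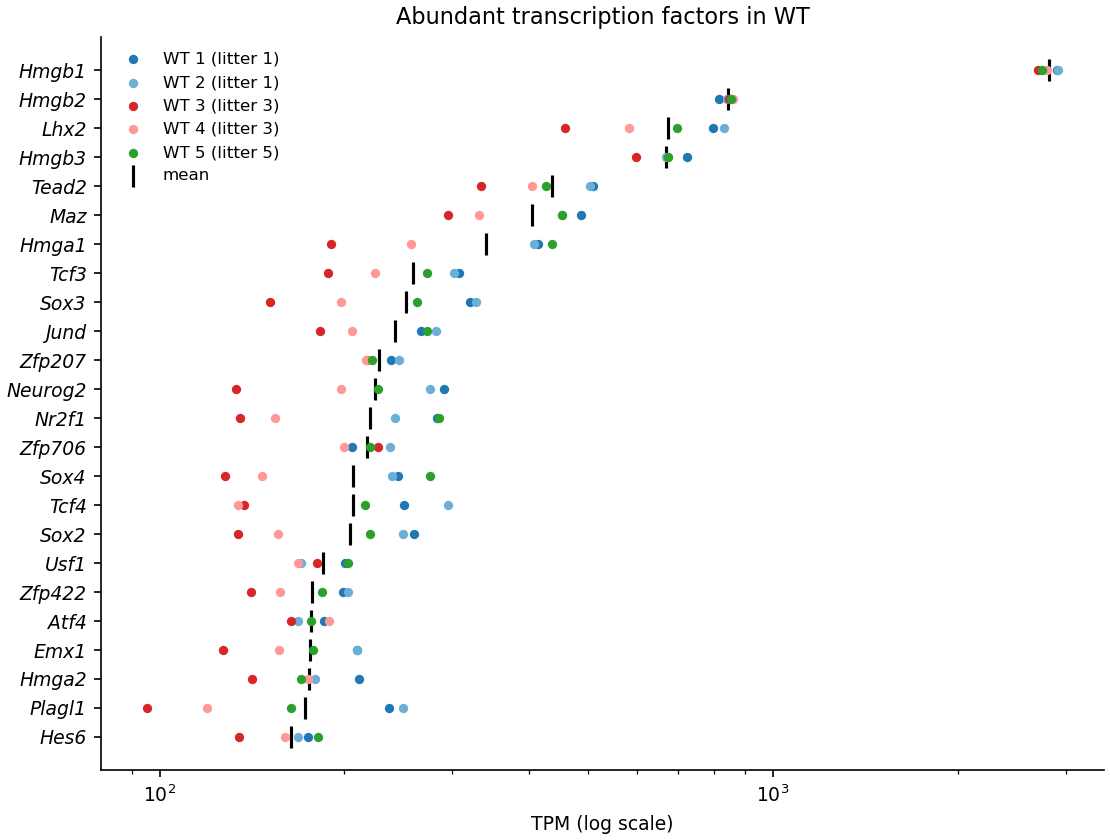
TPM of 24 of the 25 most abundant transcription factors on a log axis, with 1 point per WT library and a black tick at the mean. The WT 3 point is the lowest for 19 of the 24 factors, while the 5 points of Hmgb2 nearly coincide, as do those of Hmgb1.

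Families differed in how much of their membership was present. The SOX family had 12 of 19 members at a mean of 10 TPM or more, E2f and Tfdp 10 of 10, and nuclear factor I 4 of 4, whereas Pax had 1 of 9, T-box 3 of 16 and Gata 0 of 6. Pax6 stood alone in its family, with the next member, Pax7, at 0.434 TPM. The highest bHLH factors were Tcf3 and Neurog2, the highest T-box factors Tbr1 at 91.6 ± 37.5 and Eomes at 87.4 ± 33.1, and the highest POU factors Pou3f3 and Pou6f1, at 96.1 and 22.1 TPM. Nfix led its family at 121.2, 159.5, 45.7, 59.0 and 87.7 TPM, lowest in WT 3.

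Factors were more spread out between embryos than genes at large. Their median CV was 20.2%, against 15.5% for all genes with a mean of at least 10 TPM, and 11.9% of them had a CV under 10%, against 24.3%. They are also longer, with a median transcript of 4067 bases against 3281, and longer genes were less steady at large. Levels were not matched either: 48 of the 452 factors had a mean of at least 100 TPM, against 1607 of all 8924 genes. The median CV of all genes was 18.5% at means of 10 to 30 TPM and 11.1% at 100 to 300. The part of length and level was not tested. WT 3 was the lowest library for 64.4% of these factors and for 47.1% of all genes. The steadiest were Hmgb2 at 816.0, 843.0, 847.5, 861.7 and 853.9 TPM (CV 2.06%), Hbp1 (2.73%) and Zfp637 (2.85%). The 9 factors with a CV of 50% or more were Dlx1, Dlx2, Npas3 and Pbx3, highest in WT 5, Twist1, Msx1 and Prrx2, highest in WT 3, Prdm16, highest in WT 1, and Zfp395, highest in WT 2.

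Most genes varied little between the 5 embryos. Over the 8924 genes with a mean of at least 10 TPM the median CV was 15.5%, with quartiles of 10.2% and 23.1%, and for 7673 of them (86.0%) every library lay within 2-fold of every other. Genes with a CV under 10% are called steady here and those with a CV of 50% or more variable. By this rule 2172 genes (24.3%) were steady and 163 (1.83%) variable. Both counts depended on the rule: 5655 genes were steady by the spread within litters, and 316 were variable from a mean of 5 TPM upward. By the SD of log2 values 571 were variable, under a cut-off of its own that was not matched to a CV of 50%. Just inside the upper limit lay Slc4a1 at 50.2%, and just outside it Sulf1 at 49.8%. Without WT 3 the number of variable genes was 108. The share of steady genes was 13.8% at means of 10 to 30 TPM and 44.0% in the highest of 5 level groups, which held 150 genes.

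The protein-coding genes with the lowest CV were Vps25 and Ywhaq. Vps25, a subunit of the endosomal sorting complex, stood at 106.1, 107.3, 107.9, 107.2 and 107.0 TPM, a CV of 0.625%. Exons of Vps25 overlap those annotated to Ramp2 on the same strand, so reads may be shared between them. Ywhaq, a 14-3-3 adaptor, stood at 589.6, 602.7, 602.9, 605.8 and 607.8 TPM, a CV of 1.18%. The next were Gadd45gip1, a mitochondrial ribosomal protein, the general transcription factor subunit Gtf2f2, the hydrolase Adprh, the proline enzyme Pycrl, the RNA methylation factor Wtap, the nutrient-sensing GTPase Rragc, the secretory cargo protein Tmed9 and the ubiquitin ligase Rnf11, with CVs from 1.33% to 1.65%. Commonly used reference genes had CVs of 7.06% for Hprt, 10.4% for Gapdh, 11.9% for Tbp and 14.2% for Actb. All lay below the median CV of 15.5%, and Hprt was steady by the rule used here. The genes above were picked for the lowest CVs, so higher values elsewhere say nothing against the reference genes.

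**Figure D4:**
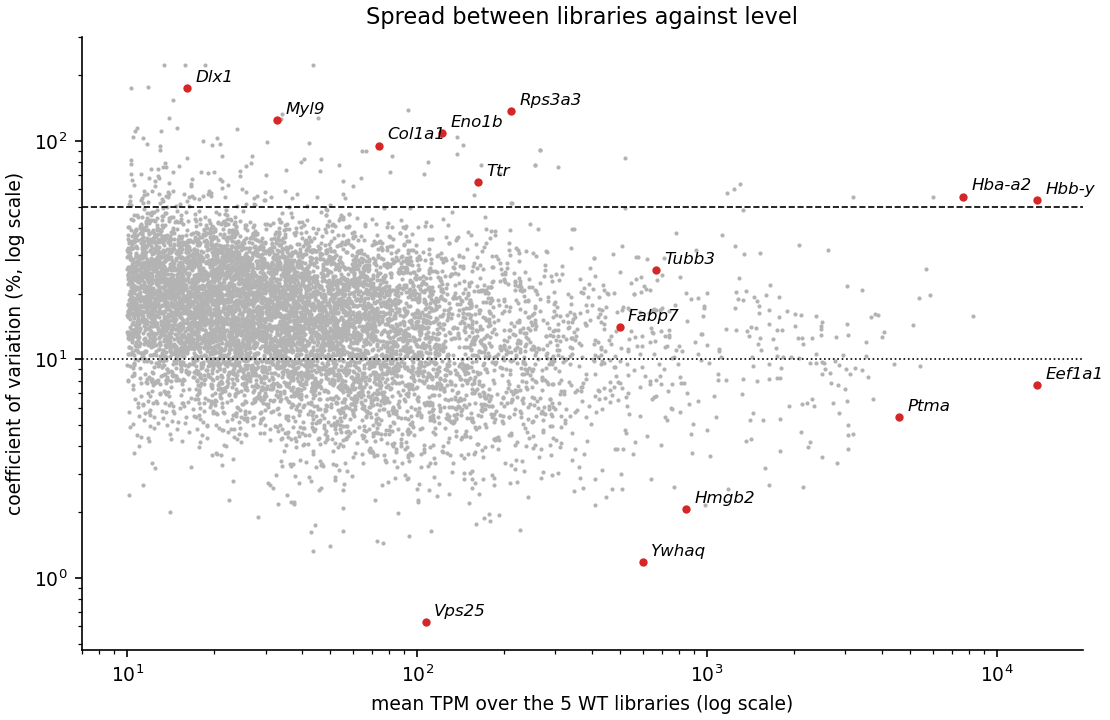
Coefficient of variation over the 5 WT libraries against mean TPM, both on log axes, for the 8924 genes with a mean of at least 10 TPM, with a dashed line at 50% and a dotted line at 10%. Named genes are in red; the globins Hbb-y and Hba-a2 lie above the dashed line at the right, and Vps25 at the foot has the lowest spread of those named.

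Of the 116 variable protein-coding genes, 59 were highest in WT 3, 16 in WT 1, 15 in WT 4, 14 in WT 5 and 12 in WT 2. The shares for all genes with a mean of at least 10 TPM were 15.3%, 32.1%, 8.75%, 18.7% and 25.1%, in the same order. Of the variable coding genes highest in WT 3, the 3 with the highest CV encode contractile or actin-binding proteins. Acta2, smooth muscle actin, stood at 1.77, 2.12, 42.6, 2.51 and 2.66 TPM. Tagln, an actin-binding protein of smooth muscle, stood at 3.8, 2.61, 54.0, 7.00 and 4.75 TPM, and Myl9, a myosin light chain, at 10.5, 13.8, 106.1, 18.4 and 15.8 TPM. For each of the 3 genes WT 3 stood far above the other libraries, which lay within 3-fold of one another. Cnn2, a calponin, and Tpm2, a tropomyosin, reached 100.2 and 39.5 TPM in WT 3. The matrix genes Thbs1, Pcolce and Apod and the actin-severing Gsn reached 31.9, 52.5, 66.9 and 25.2 TPM there, and the retinoid-binding Crabp1 and the lectin Lgals1 96.1 and 389.6. In the other libraries these 8 genes reached at most 31.4, 15.7, 7.55, 17.7, 26.4, 7.75, 34.8 and 153.7 TPM, in the same order.

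The promoters of Myl9 and Cnn2 are shown because contractile genes are known targets of serum response factor, which binds the CArG box. Both were chosen after their values and matches were seen. The promoters of Acta2 and Tpm2 are not shown, and none was available for Tagln. Of the 77 variable coding genes with a promoter, 3 (3.90%) held a CArG box. Each run is the 250 bases before the RefSeq start on GRCm38.p6, 5′ to 3′ on the plus strand, and capitals mark the CArG box, searched on either strand and held by 1.40% of all 27025 promoters.
Myl9 (chr2:156775214-156775463, plus strand): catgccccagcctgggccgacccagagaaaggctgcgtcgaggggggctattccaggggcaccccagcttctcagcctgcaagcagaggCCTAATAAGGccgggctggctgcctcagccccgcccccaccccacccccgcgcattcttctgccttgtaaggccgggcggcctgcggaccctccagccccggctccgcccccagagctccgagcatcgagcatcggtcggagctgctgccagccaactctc
Cnn2 (chr10:79988350-79988599, plus strand): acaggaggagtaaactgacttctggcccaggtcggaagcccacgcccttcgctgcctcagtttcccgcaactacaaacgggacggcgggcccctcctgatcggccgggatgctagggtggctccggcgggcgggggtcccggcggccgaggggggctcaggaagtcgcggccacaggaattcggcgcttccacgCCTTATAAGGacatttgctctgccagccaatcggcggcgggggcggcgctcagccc
The match starts 161 bases before the start in Myl9 and 56 bases before it in Cnn2. Srf itself stood at a mean of 25.7 TPM, and its part in these values was not tested.

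The variable genes that were highest in WT 5 included Dlx1 and Dlx2, the neuronal genes Dcx and Mapt, and the chromatin remodelling subunit Actl6b, at 10.6, 8.26, 9.44, 7.58 and 28.2 TPM. Npas3 and Pbx3, factors of developing brain, stood at 12.9, 10.97, 4.68, 6.60 and 28.9 TPM and at 10.8, 9.72, 19.8, 8.92 and 33.7 TPM. Stmn2, a stathmin of growing neurites, stood at 89.7, 73.2, 88.5, 73.9 and 132.7 TPM, with a CV of 26.5%. The spindle orientation gene Gpsm2 stood at 67.3, 61.3, 39.9, 51.0 and 182.9 TPM. Each was highest in WT 5, but WT 3 was next highest for Pbx3 and lowest for Npas3 and Gpsm2.

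Single libraries also stood out for genes with no shared function. Pkd1, a large membrane protein, was at 57.8 TPM in WT 4 and at most 12.8 elsewhere. Stxbp2 and Mettl17 were at 64.2 and 60.6 TPM in WT 1 and at most 19.14 and 19.8 elsewhere. Ap1ar was at 255.1 TPM in WT 2, 128.3 in WT 5 and at most 64.1 elsewhere, B230307C23Rik at 50.8 TPM in WT 5, and Gm10197 at 218.4 TPM in WT 2 and 0 in the others. Exons of Pkd1 overlap those of Tsc2, and exons of Gm10197 those of Mxi1, on the opposite strand. The sources do not say whether the counting used strand, so these values are uncertain.

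Genes with near-identical copies were among the others with a large spread. Pseudogenes made up 40 of the 163 variable genes, and 13.5% of the 297 pseudogenes with a mean of at least 10 TPM were variable, against 1.37% of protein-coding genes. The enolase copy Eno1b stood at 305.2, 30.7, 222.0, 29.1 and 24.3 TPM with a CV of 108%, and matches Eno1 at 99.5% identity over 1652 bases. The sum of Eno1 and Eno1b stood at 1205, 1184, 935, 852 and 839 TPM with a CV of 17.9%. Rps3a3, a ribosomal protein pseudogene, stood at 0, 0.15, 509.0, 546.8 and 0.17 TPM, whereas the sum of Rps3a1, Rps3a2 and Rps3a3 had a CV of 17.9%. 2210418O10Rik, at 9.77, 45.4, 4.53, 40.2 and 4.62 TPM, and Gm15446, at 45.5 TPM in WT 5 and at most 6.47 elsewhere, also have near-identical copies, and Gm14295, a zinc finger gene at 109.9, 6.17, 6.79, 5.51 and 42.2 TPM, had none under the same rule. A further 19 genes in 8 groups, such as Gm13841 and Gm8210, were listed with the same 5 values as another gene.

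A difference between litters ran through the whole table. WT 3 and WT 4 were compared with WT 1 and WT 2 in limma, with litter as a factor of 3 levels, over 14313 genes. At a Benjamini-Hochberg adjusted p under 0.05, 278 genes (1.94%) were called higher in litter 3, 2194 (15.3%) lower and 2472 (17.3%) either way. The median log2 difference of all genes was -0.20, and 0.00 after median-of-ratios scaling, so single differences are to be read against that shift. The fit has 2 residual degrees of freedom. The calls depended on single libraries and on settings: without WT 1 there were 5 higher and 1 lower, without WT 2 the same numbers, without WT 3 140 and 935, and without WT 4 639 and 2503. Each of these 4 fits has 1 residual degree of freedom: the litter that lost a library is left with a lone sample, which is assumed to vary like the pair of the other litter, so these counts say little about stability. With no mean-variance trend there were 1 and 0 calls (4849 genes had an unadjusted p under 0.05), and with no filter 0 and 0 (5463 genes). The p-values measure the spread between littermates within litters 1 and 3, not the spread between litters. Litter cannot be told apart from dissection, stage within the day or library preparation. WT 3, the only library with Xist and without the Y-linked genes, is in litter 3, so sex was not balanced between the litters.

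The erythroid genes were the list with the largest share called. In limma, 14 of 19 tested erythroid genes were higher in litter 3, with a median log2 difference of 1.39, against 1.94% of all genes. Hba-x differed by 1.61 ± 0.06 (log2 difference ± SE, adjusted p = 0.0046, limma), Hbb-bh1 by 1.77 ± 0.07 (0.00643), Hbb-y by 1.498 ± 0.07 (0.00648) and Hba-a1 by 1.53 ± 0.07 (0.00816). These differences kept their sign under every scaling tried, and that of Hbb-y was 0.61 under quantile normalisation, which draws the top of the distribution together. The call of Hbb-y in limma was lost without WT 1 (adjusted p = 0.077), without WT 2 (0.0554), with no trend (0.0609) and with no filter (0.0732), at differences from 1.47 to 1.53. The mesenchyme list had 3 of 22 members higher and none lower, with a median of 0.83, and the macrophage list 2 of 21 higher and 1 lower, with a median of 0.86. Col1a1, whose difference was 1.30 with an interval from -0.15 to 2.76, did not pass the test. The litter values of Col1a1 rest on WT 3.

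Cortical lists held more genes called lower than higher, as did the table as a whole, where 15.3% of genes were lower and the median log2 difference was -0.20. Of the apical progenitor genes, 15 of 24 were lower in litter 3 and 1 higher, with a median log2 difference of -0.65. Of the intermediate progenitor genes 10 of 18 were lower, with a median of -0.76, and of the early neuronal genes 19 of 32, with a median of -0.77. Tbr1 differed by -1.15 ± 0.15 (adjusted p = 0.0203, limma) and Sox2 by -0.81 ± 0.10 (0.0198). For Tbr1 the adjusted p in limma was 0.173 without WT 1 and 0.147 without WT 2, at differences of -1.06 and -1.24. Fabp7 went the other way, by 0.36 ± 0.08 (0.0448). These medians stayed below 0 under every scaling, while fewer genes were called: with median-of-ratios scaling 5 of 24 apical, 5 of 18 intermediate and 8 of 32 neuronal genes were lower, against 3.17% of all 14322 genes then tested. Of 830 tested transcription factors 206 were lower and 6 higher as deposited, and 61 lower and 5 higher of 827 with that scaling, when 3.07% of all genes were higher. Lists not particular to cortex lay on the same side: as deposited, 14 of 25 mitosis genes, 13 of 28 DNA replication genes, 7 of 14 heat shock genes and 7 of 15 genes of the mitochondrial genome were lower. With median-of-ratios scaling these were 5, 4, 1 and 0. Of 26 cytosolic ribosomal protein genes, 8 were higher as deposited and 15 with that scaling.

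By size alone, the leading genes of the litter comparison were mostly copies or genes near the detection limit. Those higher in litter 3 were the pseudogenes Rps3a3, Gm13841, Gm8210 and AC122306.1, the noncoding Gm4349, and the coding genes Gm10226, Snurf and Exosc6. Those lower were the pseudogenes Gm8666, Gm9174, Gm14822 and Hmgn2-ps1, the noncoding Gm21814 and Gm49733, and the histone genes Hist1h2ah and Hist2h2ac. Of these 16 genes, 10 were listed at 0 in both libraries of one of the litters compared. Snurf shares its sequence with Snrpn and Exosc6 overlaps Aars on the same strand.

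The litter difference followed transcript length. Genes were put in 5 groups of equal size by the length of their longest annotated transcript. In WT 3 the median log2 deviation from a gene's mean was 0.04 in the shortest group, 195 to 1800 bases, and -0.36 in the longest, 5128 to 40378 bases. WT 4 ran from 0.03 to -0.26, while WT 1 ran from -0.06 to 0.28 and WT 2 from -0.06 to 0.23. WT 5 changed least, from 0.02 to 0.11. The share of steady genes fell from 35.6% in the shortest group to 7.85% in the longest. In the litter test the share called lower was 2.73% in the shortest group of tested genes and 34.0% in the longest. When a length trend was taken off each library before the fit, 14 genes were higher and 2 lower, 9 of the 14 in the erythroid list, and no gene of the 3 cortical lists was called. Their median log2 differences were then -0.43 for apical progenitors, -0.54 for intermediate progenitors and -0.43 for early neurons, against 0.00 for all genes. Tbr1 then differed by -0.87 (adjusted p = 0.0835, limma) and Hbb-y by 1.31 (0.0102). RNA integrity, priming and fragment size were not among the sources used here, and their part was not tested.

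**Figure D5:**
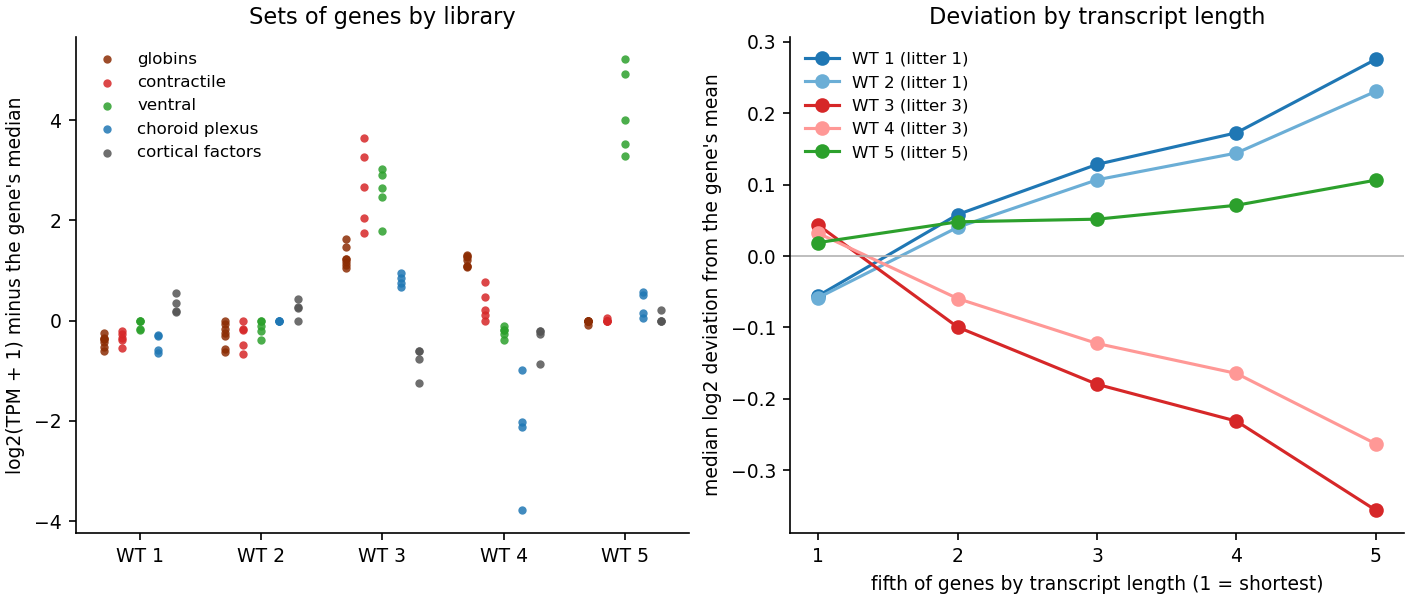
Left, log2(TPM + 1) minus the gene's median over the 5 WT libraries for 5 sets of genes, with 1 point per gene and library: globins rise in WT 3 and WT 4, contractile genes in WT 3, ventral genes in WT 5 and to a lesser degree WT 3, choroid plexus genes are lowest in WT 4, and cortical factors are lowest in WT 3. Right, median log2 deviation from the gene's mean in 5 groups of transcript length, 1 line per library, from 0.28 in WT 1 to -0.36 in WT 3 for the longest transcripts.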

How the data were processed

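RNA of 5 WT cortices was measured, 1 library per animal, grouped by the genotype and litter in the labels. The TPM values were deposited by the authors. Cutadapt, featureCounts, DESeq2 and mm10 are named per the submitters' processing notes. The aligner, the use of strand, the treatment of reads with several matches and the tool that made TPM are not given in the sources used here. A further 5 columns of values with no matching label were not used, nor was the authors' table on the knockout.

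Of 24814 gene identifiers, 24762 were found in GENCODE M21 for GRCm38, and 26 symbols turned into dates by a spreadsheet were restored. Means, SDs and CVs were taken on TPM with pandas 2.3.3 and numpy 2.4.6 in Python 3.11.15. Litters were compared with limma 3.58.1 in R 4.3.3 on log2(TPM + 1), with a mean-variance trend, over genes at 1 TPM or more in at least 2 libraries, and fold changes on that scale understate changes of low genes. Adjusted p-values are Benjamini-Hochberg values from limma, two-sided. Copies were searched with blastn 2.17.0 for transcripts of 97% identity or more over at least 50% of the transcript, for 254 named genes. A copy was found for 47 of them, among them Eef1a1, Tuba1a, Tuba1b, Rps2, Rpl23a, Rplp0 and Hmga1. The separate levels of such genes are uncertain.

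The members and lists were chosen with earlier results of these data known. Named genes are the highest of the table, of each list and of the transcription factors, list members at 5 TPM or more with a CV of 50% or more, the steadiest and most variable coding genes, and the litter genes with the largest differences. Others, among them Npas3, Pbx3, Actl6b, Gpsm2, Stmn2, Birc5, Tyms, Top2a, Prdm16 and Zfp395, were chosen after their values were seen. Results on some withheld items are not reported here.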

Additional observations from a re-analysis of the deposited data

Results flagged for a closer look

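With 5 libraries, a value was picked out when its gap to the nearest other library was more than 0.71 of the whole range. This picked out 34 of 229 named genes and 3 of 30 list sums. Chance flags about 1 in 20 groups drawn without regard to their spread. Many of the named genes were chosen because their values varied, so that share is no measure of chance for them. None of these values was followed up further.

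WT 3 was far above the others for Msx1 (114.0 TPM), Msx2 (26.0), Aqp1 (17.4), Col1a2 (205.3), Col1a1 (198.6), Twist1 (32.8), Pdgfra (16.2), Acta2 (42.6), Tagln (54.0), Myl9 (106.1), Thbs1 (31.9), Pcolce (52.5), Apod (66.9), Tpm2 (39.5), Cnn2 (100.2), Gsn (25.2), Crabp1 (96.1) and Lgals1 (389.6). The summed TPM of the mesenchyme list (1935) and of the macrophage list (379.7) stood apart in the same library. WT 3 was far below the others for the Y-linked genes Ddx3y, Kdm5d and Uty, each listed at 0, and for the sex-linked sum (20.4).

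WT 5 was far above the others for Stmn1 (2869 TPM), Stmn2 (132.7), Dlx1 (65.3), Dlx2 (48.3), Gm15446 (45.5), B230307C23Rik (50.8), Actl6b (28.2) and Gpsm2 (182.9). WT 1 stood above for Stxbp2 (64.2) and Mettl17 (60.6) and below for the steady gene Ywhaq (589.6). WT 2 stood above for Gm10197 (218.4) and WT 4 for Pkd1 (57.8).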

How the results depend on the processing

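No paired analysis was possible because a single group was described. The number of factors at 10 TPM or more was 278 without the Zfp and Hmg families, against 452. Variable genes numbered 163, and 316 at a mean of at least 5 TPM, 83 at 20 TPM, 571 by the SD of log2 values, and 108 to 202 with 1 library left out. Steady genes numbered 2172, 5655 by the spread within litters, and 2179 to 2941 with 1 library left out. Genes higher in litter 3 in limma numbered 278, 0 with no filter, 1 with no trend, 439 with median-of-ratios scaling, 14 with the length trend removed and 5 to 639 with 1 library left out. Genes lower numbered 2194, 0 with no filter, 0 with no trend, 410 with quantile normalisation, 454 with median-of-ratios scaling, 2 with the length trend removed and 1 to 2503 with 1 library left out. Cux1 (a log2 difference of 0.0862) and Dlg4 (0.0127) changed sign with the length trend removed, and Rps27 (-0.48) and mt-Nd3 (-0.0647) with quantile normalisation. The median-of-ratios and length settings were chosen after seeing the data, and the cause of these changes was not tested. Detected genes numbered 12734, against 11761 among protein-coding genes only and 9903 at 5 TPM or more in all libraries. The remaining settings gave 12730 to 12882. The share of the 100 most abundant genes was 30.6%, and 29.0% to 31.8% under the alternatives.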
